A study of Saccharomyces cerevisiae with 83 samples.

Results

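The mRNAs described here encode proteins of the mitochondrial ribosome of budding yeast, Saccharomyces cerevisiae. They were taken as the rows of mature mRNAs whose locus has a standard gene name beginning with MRP, MRPL, MRPS or RSM followed by a digit. The rule found 67 of 6587 mature mRNA rows, in tables of 6952 rows in all. Of the 67, 38 encode proteins of the large subunit and 27 proteins of the small subunit. The other two were counted in neither subunit: MRP8, a protein of unknown function that once was taken for a ribosomal protein, and RSM22, a methyltransferase-like protein tied to the small subunit. By the unified protein names in the annotation, 27 members belong to families found in all ribosomes (prefix u), 14 to families shared with bacteria (prefix b) and 24 to families particular to mitochondria (prefix m). The genes lie on 14 nuclear chromosomes, with at most 12 on one. Their coding sequences span 213 to 1887 bases in the R64 annotation, with a median of 699 bases for the members and 1197 bases for 5846 other mRNAs. This coding length is the span on the chromosome, so introns are counted where a gene has them.

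Mitochondrial ribosomes translate the few mRNAs of the mitochondrial genome, which encode core subunits of the respiratory chain and the ATP synthase. Almost all of their proteins are encoded in the nucleus, translated on cytosolic ribosomes and imported, so that both genomes must supply parts of the same complexes. Many of the mRNAs are bound by Puf3, an RNA-binding protein that controls the stability and location of mRNAs for mitochondrial proteins. The RNA-binding helicase Upf1, with Upf2 (gene NMD2) and Upf3, carries out nonsense-mediated decay, which removes mRNAs on which translation ends early.

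The study profiled ribosomes bound by FLAG-tagged Upf proteins beside all ribosomes of the same lysates, with RNA sequencing of the lysates, in strains of the W303 background. There were 30 RNA libraries, 30 libraries of footprints from total 80S ribosomes and 23 libraries of footprints from ribosomes purified over anti-FLAG gel (IP). The first experiment, called C here, had 3 libraries of each kind per strain, all with cycloheximide (CHX, an inhibitor of translation elongation, at 100 µg/ml from just before harvest). Its strains were Upf1-FLAG (upf1::HIS3 with pRS425-UPF1-FLAG), DE572AA-FLAG (upf1::HIS3 with pRS425-DE572AA-FLAG, a mutant Upf1), a strain labelled upf2Δ (nmd2::HIS3 and upf1::URA3 with pRS425-UPF1-FLAG) and the wild type WT-C with empty pRS425. The second experiment, called N, carried the tag at the N-terminus and had 2 libraries of each kind per strain and treatment. Its strains were FLAG-Upf1 (upf1::HIS3 with pG1-FLAG-UPF1), FLAG-Upf2 (nmd2::HIS3 with YEplac112-FLAG-UPF2), FLAG-Upf3 (upf3::HIS3 with YEplac195-TPI-FLAG-UPF3) and the wild type WT-N with empty YEplac112, each with CHX and without it (noCHX). FLAG-Upf1+Upf2+Upf3 (upf1::HIS3 with pG1-FLAG-UPF1, pRS425-UPF2 and YEplac195-TPI-UPF3) was grown for the CHX arm only. The tagged proteins thus came from plasmids, and no IP of an untagged wild type was analysed here. The labels do not say whether the numbered libraries of a group came from separate cultures, so p-values measure the spread between these libraries, which may be technical. Ribosomal RNA was removed with different kits in C and N, so each comparison stays within one experiment.

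RNA libraries held 49079265 to 164141441 counts, and members had median counts of 2548 to 9497 in them. Footprint libraries were far shallower, at 213689 to 3020880 counts for total 80S in C, 275418 to 1419205 for IP in C, 107334 to 935202 for total 80S in N and 66971 to 1470361 for IP in N. The median count of a member was 5 to 43 in the IP libraries of C and at most 16 in those of N, where 3 to 45 of the 67 members were at 0. RNA of the targeted genes did not match 1 label. NMD2 averaged 1174 ± 17.7 CPM (counts scaled to the library's total) in the upf2Δ-labelled strain and 197 ± 12.01 CPM in the 3 WT-C libraries (SD), so the strain is called upf2Δ-labelled throughout. The labels do not give which part of NMD2 was deleted. Both strains of nmd2::HIS3 genotype also expressed genes of the alpha mating type. STE3 RNA averaged 195 ± 8.56 CPM in the upf2Δ-labelled strain against 1.79 ± 0.296 CPM in WT-C (n = 3 each), and 247 ± 2.47 CPM in FLAG-Upf2 noCHX against 1.59 ± 0.435 CPM in WT-N noCHX (n = 2 each). MFA1, an a-factor gene, had 0.289 CPM in the upf2Δ-labelled strain against 45.6 CPM in WT-C, and 0.139 CPM in FLAG-Upf2 noCHX against 25.7 CPM in WT-N noCHX. The CPM of members in later paragraphs are instead on edgeR's TMM scale.

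As RNA, the members were moderately abundant. Levels are given as the deposited FPKM, which are per length. Members had a median of 73.0 FPKM in WT-C, where all mature mRNAs had a median of 37.7 FPKM and cytosolic ribosomal protein mRNAs one of 1845 FPKM. The highest was MRPS12 (uS12m, a protein of the decoding centre) with 154, 156 and 142 FPKM, followed by RSM18 (bS18m) at 142 ± 1.85, MRPS8 (uS8m) at 142 ± 4.20, MRPL50 (bL9m) at 141 ± 6.37 and MRPL36 (bL31m) at 128 ± 4.78 FPKM (SD, n = 3). RSM18, MRPS8 and MRPL50 lie within their SD of each other. The lowest was MRPL6 (uL6m) with 30.8, 31.0 and 28.2 FPKM, and RSM24, MRPL51, RSM22 and MRP35 lay at 36.6, 37.3, 37.9 and 39.3 FPKM. The highest member was 5.02 times the lowest in WT-C, and 7.90 times in WT-N noCHX. This spread was not set against that of other gene lists.

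The order of the members differed between the wild types of the 2 experiments more than the order of all mRNAs did. Across the 67 members, Spearman's rho between mean FPKM in WT-N CHX and WT-C was 0.25, against 0.92 across 6475 mRNAs and 0.67 across the 3038 mRNAs within the members' range of levels in WT-C. Within the N experiment, rho between WT-N CHX and WT-N noCHX was 0.96 across the members, and within C it was 0.95 for the upf2Δ-labelled strain beside WT-C. MRPL51 (mL43, on chromosome XVI at bases 729791 to 730213) ranked first of 67 in WT-N CHX, with 171 and 170 FPKM, and ranked 65 in WT-C, with 39.9, 36.6 and 35.6 FPKM. In the other direction, MRPL4 (uL29m, on chromosome XII at bases 1014491 to 1015450) had 38.5 and 27.1 FPKM in WT-N CHX, the lowest of the 67, against 102, 112 and 110 FPKM in WT-C, where it ranked 10. MRP4 (uS2m) and MRP20 (uL23m, at the exit of the peptide tunnel) were also among the lowest 5 in WT-N CHX, at 47.8 and 55.2 FPKM, and averaged 100 and 97.1 FPKM in WT-C. The experiments differ in plasmid and rRNA kit. These and any other difference between them cannot be told apart here, so no test was made between the experiments.

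**Figure D1:**
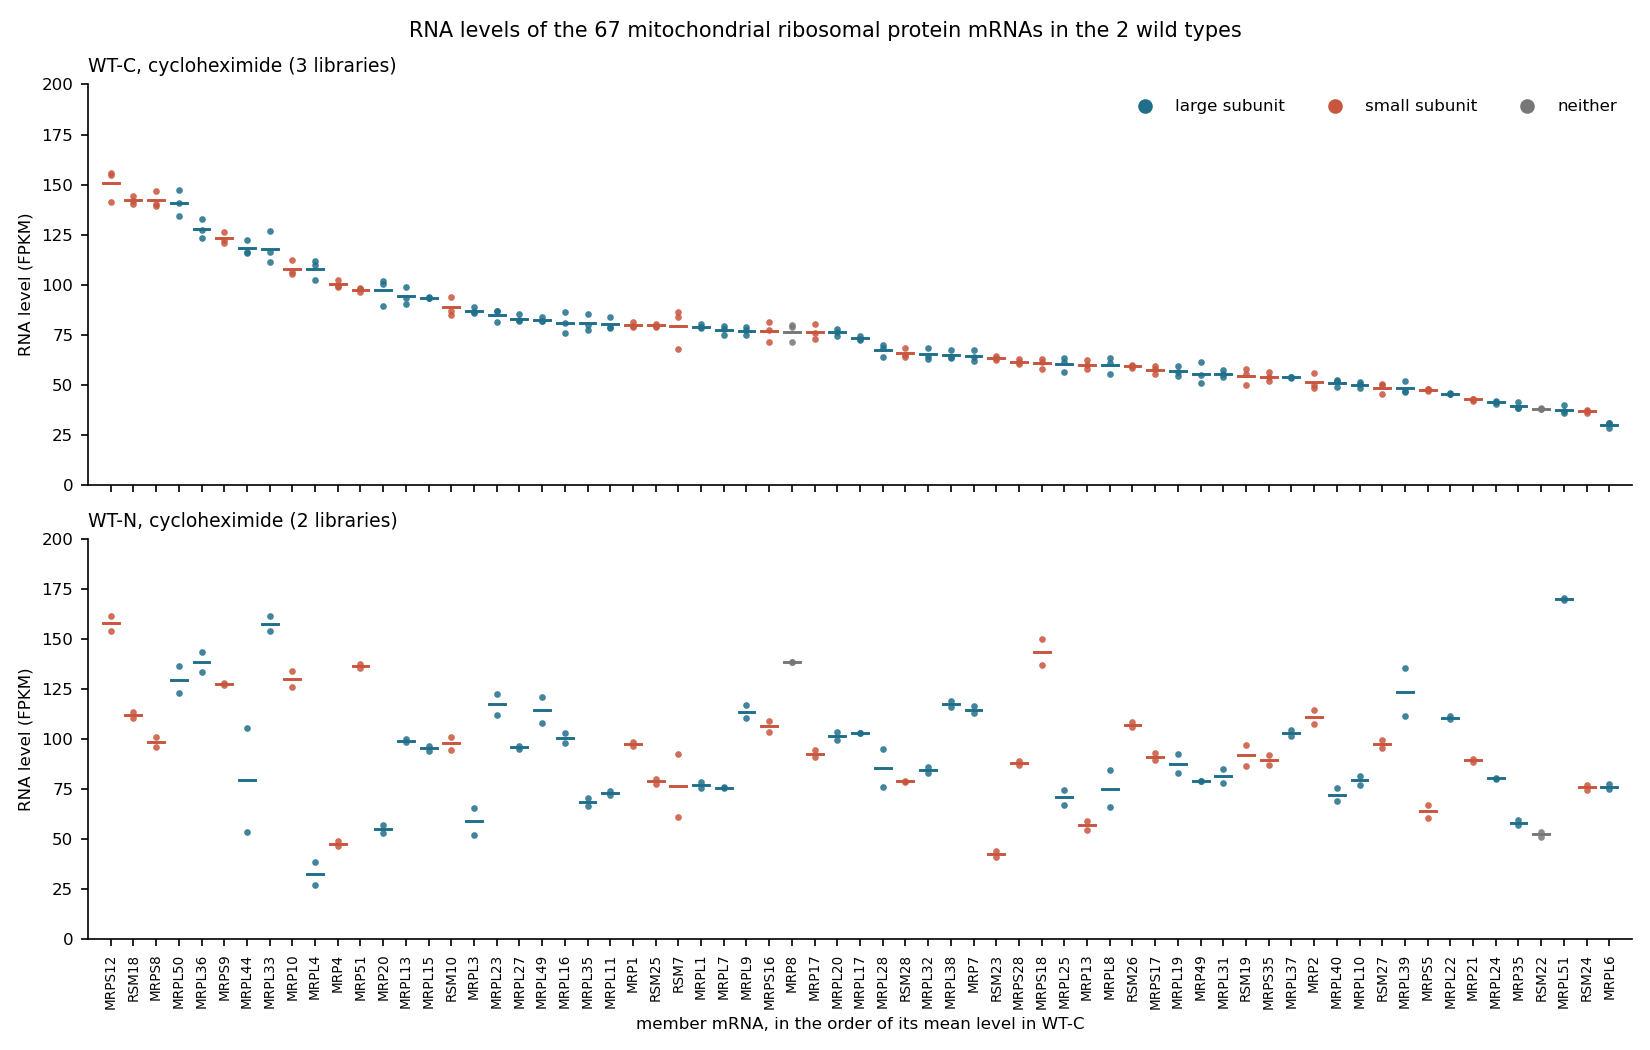
RNA level (FPKM, linear axis) of each of the 67 mRNAs in WT-C with cycloheximide (upper panel, 3 libraries) and WT-N with cycloheximide (lower panel, 2 libraries), in the order of the WT-C mean. Points are libraries, bars are means and colours give the subunit. The order of WT-C is not kept in WT-N, where MRPL51 is highest and MRPL4 lowest.

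Set against their RNA, the members carried about as many footprints as a typical mRNA. The ratio of total 80S to RNA FPKM, on a log2 scale relative to the median mRNA, had a member median of 0.21 in WT-C, and 25 of 67 members lay below 0. The small subunit had a median ratio of 0.47 and the large subunit one of 0.04, while cytosolic ribosomal protein mRNAs had 1.37. The ratio was highest for MRPL51, at 2.38 from 51 footprint counts, and lowest for MRP10 (mS37), at −1.57 from 11 counts. In Upf1-FLAG these ratios were 1.88 from 316 counts and −0.10 from 162 counts, so the low value of MRP10 rests on few counts. Medians were 0.38 in Upf1-FLAG, 0.42 in DE572AA-FLAG, 0.36 in the upf2Δ-labelled strain, 0.10 in WT-N CHX and −0.16 in WT-N noCHX. The N values are shallow: total 80S library 1 of WT-N noCHX had 27 of the 67 members at 0. Across the members, the order of footprint levels followed that of RNA weakly, with a rho of 0.28 in WT-C against 0.83 across 5333 mRNAs, many of which span a wider range of levels.

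The first question was whether the RNA of the members differs between the strains of the C experiment. It was lower in the upf2Δ-labelled strain than in WT-C for most members, lower in DE572AA-FLAG for fewer, and lower in Upf1-FLAG for fewer still. Each transcript was tested with edgeR's quasi-likelihood test on rounded counts, and a call is a Benjamini-Hochberg adjusted p under 0.05 over all transcripts tested. In the upf2Δ-labelled strain, 42 of 67 members were lower and 0 higher, where 27.9% of 6739 transcripts were lower and 26% higher. The members' median log2 fold change was −0.30 and that of all transcripts −0.01. Fold changes were negative for 65 of the 67, and both subunits took part, with 25 of 38 large and 16 of 27 small subunit members lower.

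Among the members called in that strain, the 5 with the largest falls were MRPL6, MRPL23, MRPS5, RSM26 and MRPL24, while MRP2, at −0.47, did not pass the threshold (adjusted p = 0.0634, edgeR). MRPL6 (on chromosome VIII at bases 392639 to 393283) had 13.4, 11.6 and 14.6 CPM in the upf2Δ-labelled strain, against 19.6, 19.97 and 18.3 CPM in WT-C. Its log2 fold change was −0.55 ± 0.11 (SE, adjusted p = 0.00116, edgeR). MRPS5 (uS5m, at the mRNA entry side of the small subunit) had 29.2, 29.6 and 32.8 CPM in the upf2Δ-labelled strain, against 41.5, 42.8 and 43.5 CPM in WT-C, a log2 fold change of −0.48 ± 0.08 (adjusted p = 0.000342, edgeR). In both, all 3 libraries of the strain lay below all 3 of WT-C. RSM26 (mS42, a protein of superoxide dismutase fold) had 36.9, 36.7 and 41.1 CPM in the upf2Δ-labelled strain and 53.0 CPM in each WT-C library, with a log2 fold change of −0.47 ± 0.07 (adjusted p = 0.000138, edgeR). MRPL24 (bL28m) fell by 0.47 on the log2 scale and MRPL23 (uL13m) by 0.50, with adjusted p-values of 0.000163 and 0.00429, and neither overlapped WT-C. The other members followed by name in every comparison moved less or did not pass the threshold. MRPL36 had a log2 fold change of −0.31 (adjusted p = 0.00554), MRPL19 (uL11m, at the stalk base) −0.32 (adjusted p = 0.00959), MRP10 −0.44 and RSM22 −0.17 (adjusted p = 0.0185, all edgeR). MRP1 (mS43) at −0.12, MRP51 (bS1m) at −0.16 and MRP8 at −0.01 did not pass. MRPL39 (bL33m) had a positive value, 0.27, which did not pass either (adjusted p = 0.0647, edgeR).

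These members are short, and the comparison was read within classes of coding length. As introns are counted, mRNAs with introns can fall in a class longer than their coding sequence. Among mRNAs of 500 to 1000 bases, 71.9% of the members were lower in the upf2Δ-labelled strain, with a median log2 fold change of −0.30, against 27.3% and −0.03 for other mRNAs. From 1000 to 2000 bases the shares were 80% of the members and 33.3% of the others, with medians of −0.32 and −0.05. Below 500 bases they were 44% and 14.9%, with medians of −0.24 and 0.19. The difference from other mRNAs was thus present in each class. The call fell to 33 members (32 lower) when library totals replaced TMM scaling. The alpha mating type genes of this strain move with these calls, and their part in the result was not tested. Values are relative to each library, so less RNA of a member and more RNA of other genes per cell cannot be told apart.

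In DE572AA-FLAG, 25 members were lower and 2 higher than in WT-C, where 27.6% of transcripts were lower and 26.3% higher, so the share of members lower, 25 of 67, was not far above that of all transcripts. MRP4, a small subunit protein, had 90.1, 99.3 and 89.8 CPM in DE572AA-FLAG, against 118, 123 and 120 CPM in WT-C. Its log2 fold change was −0.37 ± 0.07 (SE, adjusted p = 0.00072, edgeR). MRPL19 fell by 0.40, RSM25 (mS23) by 0.35, MRP10 by 0.34 and MRPL4 by 0.34 on the log2 scale. The 2 members that were higher were MRPL39, with 17.4, 19.8 and 16.8 CPM in DE572AA-FLAG against 13.3, 15.1 and 13.8 CPM in WT-C, and MRP8, with 75.4, 60.5 and 68.4 CPM against 55.98, 57.1 and 51.5 CPM in WT-C. Neither overlapped WT-C, with log2 fold changes of 0.36 (adjusted p = 0.0212) and 0.31 (adjusted p = 0.0322, both edgeR). The members' median was −0.17 with TMM scaling. With library totals, which moved the median of all transcripts to 0.11, the members' median was −0.05, and 4 were lower and 3 higher. Leaving out WT-C library 1 left 17 members called.

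In Upf1-FLAG, 13 members were lower and 0 higher than in WT-C, against 12.8% of transcripts lower and 17.5% higher. RSM23 (mS29, a GTP-binding protein of the small subunit) had 77.5, 73.5 and 70.7 CPM in Upf1-FLAG and 93.0, 91.3 and 93.5 CPM in WT-C, a log2 fold change of −0.33 ± 0.06 (adjusted p = 0.000683, edgeR). MRPL49 (bL21m) had 27.6, 29.1 and 26.2 CPM in Upf1-FLAG and 35.3, 35.7 and 37.1 CPM in WT-C, a log2 fold change of −0.38 ± 0.09 (adjusted p = 0.0072, edgeR). MRP35 (bL35m) fell by 0.41, MRPL23 by 0.39 and MRPL16 (uL16m, near the peptidyl transferase centre) by 0.30. Of these 5, picked by their falls in the same libraries, no library of Upf1-FLAG reached the range of WT-C, which is not separate support. The count was 7 without WT-C library 1, 8 without library 2 and 8 without library 3. The 3 comparisons share the WT-C libraries. Lower in each of them were 9 members: MRPL3, MRPL7, MRPL15, MRPL16, MRPL24, MRPL32, MRPS8, MRPS9 and RSM23. The share of all transcripts lower in each was not computed. PUF3 RNA, no member itself, had log2 fold changes of −0.34 in the upf2Δ-labelled strain (adjusted p = 0.000215), −0.30 in DE572AA-FLAG (adjusted p = 0.000554) and −0.21 in Upf1-FLAG (adjusted p = 0.0128, all edgeR).

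Set against Upf1-FLAG, which carries the same plasmid, the upf2Δ-labelled strain had 17 members lower and 0 higher, where 8.76% of transcripts were lower and 14.1% higher. MRPL6 had 13.4, 11.6 and 14.6 CPM in the upf2Δ-labelled strain and 18.2, 20.6 and 16.3 CPM in Upf1-FLAG, a log2 fold change of −0.48 ± 0.11 (adjusted p = 0.00917, edgeR). MRPS5 fell by 0.39, RSM28 (mS46) by 0.33, MRPS16 (bS16m) by 0.32 and MRPL36 by 0.32. None of the 5 overlapped Upf1-FLAG, which is not separate support, as they were picked by their falls in these libraries. With library totals, which put the median of the members at −0.09 and that of all transcripts at 0.08, 2 members were called, and without library 2 of the upf2Δ-labelled strain 11 were. DE572AA-FLAG against Upf1-FLAG gave 2 members lower and 0 higher, MRPL19 and MRP4, with log2 fold changes of −0.34 (adjusted p = 0.0159) and −0.28 (adjusted p = 0.0123, both edgeR), where 11.2% of transcripts were lower and 15.3% higher. With library totals 7 members were higher and 0 lower, but that scaling moved the median log2 fold change of all transcripts to 0.14 and that of the members to 0.10. On the TMM scale these medians were 0.00068 and −0.04, so the members lay below all transcripts under both. Without DE572AA-FLAG library 3 no member was called.

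Other lists of the mitochondrial translation system did not all move this way in the upf2Δ-labelled strain, where 27.9% of all transcripts were lower and 26% higher. Of 12 mitochondrial ribosomal proteins with other names, 7 were lower and 0 higher, with a median log2 fold change of −0.31. Of 24 translation factors and aminoacyl-tRNA synthetases of mitochondria, 6 were higher, led by HER2 and MSW1, and 3 lower, led by MEF1 and TUF1, with a median of 0.09. Of 35 nuclear mRNAs for the respiratory chain and ATP synthase, 16 were lower and 0 higher (median −0.17). Of 138 cytosolic ribosomal protein mRNAs, 104 were lower and 0 higher (median −0.35). In DE572AA-FLAG 13 of 35 respiratory mRNAs were higher and 0 lower than in WT-C, and 11 of the 24 factors were higher and 1 lower. There, 26.3% of all transcripts were higher and 27.6% lower.

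**Figure D2:**
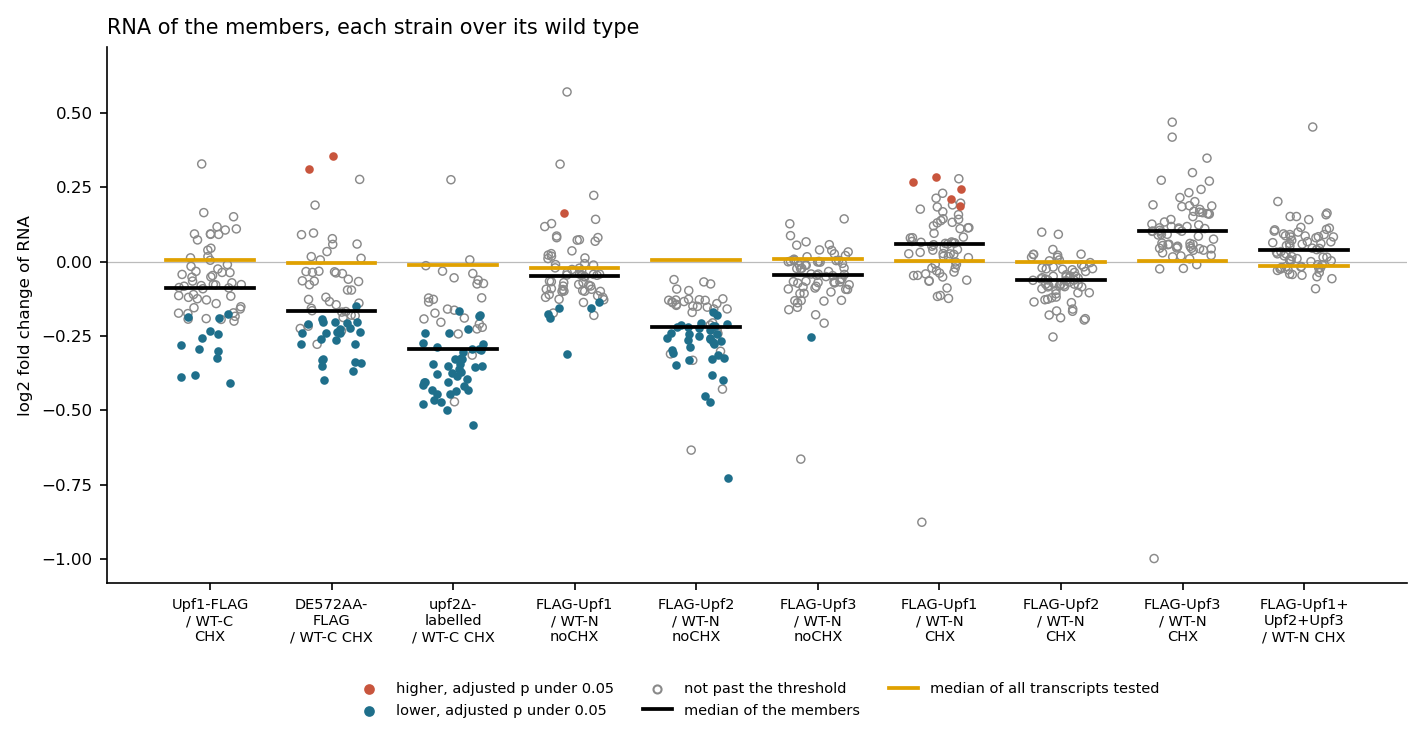
Log2 fold change of RNA for the members in each strain over its wild type, in C (left 3 columns) and N (right 7 columns). Points are members, filled where the edgeR adjusted p is under 0.05; black bars are medians of the members and yellow bars medians of all transcripts tested. The upf2Δ-labelled strain (median −0.30) and FLAG-Upf2 noCHX (median −0.22) lie lowest.

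In the N experiment without cycloheximide, the FLAG-Upf2 strain stood apart in the members' RNA. There, 35 of 67 members were lower than in WT-N and 0 higher, against 4.97% of 6736 transcripts lower and 9.93% higher. All 67 fold changes were negative. Their median on the log2 scale was −0.22, and that of all transcripts 0.01. MRPS16 had 38.7 and 38.1 CPM in FLAG-Upf2 noCHX and 49.5 and 51.9 CPM in WT-N noCHX, a log2 fold change of −0.40 ± 0.07 (adjusted p = 0.00139, edgeR). RSM27 (mS33, on chromosome VII at bases 922175 to 922507) had 31.3 and 31.9 CPM in FLAG-Upf2 noCHX and 40.6 and 41.8 CPM in WT-N noCHX, a log2 fold change of −0.38 ± 0.07 (adjusted p = 0.00229, edgeR). MRPL28 (mL40) had the largest fall, with 24.6 and 17.7 CPM in FLAG-Upf2 noCHX against 38.7 and 31.1 CPM in WT-N noCHX, and the widest replicates (log2 fold change −0.73 ± 0.17, adjusted p = 0.0171, edgeR). MRPL8 (bL17m) fell by 0.47 and MRPL25 (mL59) by 0.45. In each of the 5 both libraries of FLAG-Upf2 lay below both of WT-N. They were picked by their falls in these libraries, so this is not separate support. By subunit, 20 of 38 large and 15 of 27 small subunit members were lower.

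The members took 0.318% of RNA counts in both FLAG-Upf2 noCHX libraries, against 0.373% and 0.380% in WT-N noCHX. Of the lists beside them, 7 of 12 other-named mitochondrial ribosomal proteins were lower, as were 11 of 35 respiratory mRNAs, 1 of 24 factors and 6 of 138 cytosolic ribosomal protein mRNAs, and none of these 4 lists had a member that was higher. PUF3 was at 44.02 CPM in FLAG-Upf2 noCHX and 44.3 CPM in WT-N noCHX. With 2 libraries a group, the count rested on single libraries: it was 21 or 19 without FLAG-Upf2 noCHX library 1 or 2, and 14 without WT-N noCHX library 1. A fit of the 2 groups alone called 0 members. FLAG-Upf2 is the other strain with alpha mating type RNA, as given above, and the part of mating type in the result was not tested.

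The same strain with CHX gave no member past the threshold. In FLAG-Upf2 CHX against WT-N CHX, edgeR called 0 members, with 9 lower and 0 higher at an unadjusted p under 0.05, and DESeq2 called 2 lower, where edgeR called 1.83% of transcripts in either direction. The median log2 fold change was −0.06. Whether the CHX effect differed between FLAG-Upf2 and WT-N was tested as an interaction, added after seeing the data. It gave 0 members by edgeR and 1 by DESeq2, and 23 were higher and 0 lower at an unadjusted p under 0.05. Counts at an unadjusted p were not made for all transcripts, so here and below they have no background share.

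The remaining N strains gave few calls. FLAG-Upf1 noCHX had 6 members lower and 1 higher than WT-N noCHX, against 20% and 16.8% of transcripts. MRPS17 (uS17m) had the largest fall, with 53.4 and 56.5 CPM in FLAG-Upf1 noCHX against 65.6 and 70.9 CPM in WT-N noCHX (log2 fold change −0.31 ± 0.08, adjusted p = 0.00707, edgeR). The one that was higher was MRP49 (mL61), with 33.3 and 32.5 CPM in FLAG-Upf1 noCHX and 30.3 and 28.4 CPM in WT-N noCHX, a log2 fold change of 0.16 (adjusted p = 0.0443, edgeR). With library totals 4 members were called, all higher. That scaling put the median of all transcripts at 0.08 and that of the members at 0.05, against −0.02 and −0.05 on the TMM scale. Without FLAG-Upf1 noCHX library 1 no member was called. With CHX, FLAG-Upf1 had 5 members higher and 0 lower than WT-N, against 8.64% and 5.75% of transcripts. They were MRPL37 (mL54), MRPL31 (mL60), RSM27, MRPS28 (uS15m) and MRPS18 (uS11m), with log2 fold changes of 0.19 to 0.29. MRPS28 had 69.0 and 74.7 CPM in FLAG-Upf1 CHX and 62.0 and 62.2 CPM in WT-N CHX (adjusted p = 0.011, edgeR). Without WT-N CHX library 2 none of them was called. FLAG-Upf3 noCHX had 1 member lower and 0 higher, against 1.66% and 3.03% of transcripts: MRPL33 (uL30m), with 36.5 and 35.5 CPM in FLAG-Upf3 noCHX and 44.04 and 41.7 CPM in WT-N noCHX, fell by 0.25 (adjusted p = 0.00862, edgeR). It was not called without WT-N noCHX library 1 or without FLAG-Upf3 noCHX library 2. FLAG-Upf3 CHX and FLAG-Upf1+Upf2+Upf3 CHX had 0 members called by edgeR against WT-N CHX, where 3.87% and 22.4% of transcripts were called in either direction. At an unadjusted p under 0.05 they had 24 and 4 members higher and 0 lower, and DESeq2 called 5 higher and 0.

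Cycloheximide was compared with its absence within each N strain. On the TMM scale, members were more often lower than higher with CHX, and with library totals as scaling the direction was the opposite in all 4 strains. On the TMM scale WT-N had 47 members lower and 1 higher, against 29.5% of transcripts lower and 30.8% higher. FLAG-Upf1 had 33 lower and 2 higher against 22.6% and 25.8% of transcripts. FLAG-Upf2 had 22 lower and 2 higher against 27.8% and 26.9%. FLAG-Upf3 had 23 lower and 2 higher against 27.8% and 27.3%. In these last 2 strains the share of members lower was near that of all transcripts. With library totals, which put the median of all transcripts at 0.29 to 0.40 on the log2 scale, 21 members were higher and 1 lower in WT-N, 24 and 2 in FLAG-Upf1, 48 and 0 in FLAG-Upf2 and 36 and 0 in FLAG-Upf3. Relative to the median of all transcripts the members were lower under both scalings: their medians were −0.26, −0.15, −0.11 and −0.12 against 0.02 to 0.03 for all transcripts with TMM, and 0.11, 0.11, 0.26 and 0.19 against 0.40, 0.29, 0.38 and 0.34 with library totals.

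The members' summed share of RNA counts is a scaling by library totals, so it is not evidence separate from the library totals above. It was higher with CHX in 8 of 8 pairs of libraries of one strain and number, by 1.05 to 1.22 times. The share of cytosolic ribosomal protein mRNAs was lower with CHX in 8 of 8 pairs, at 0.786 to 0.919 times. In WT-N the members took 0.409 ± 0.00773% of counts with CHX and 0.376 ± 0.00483% without it (SD, n = 2 each). The respiratory list had 27 of 35 lower and 0 higher in WT-N on the TMM scale (median −0.45), cytosolic ribosomal protein mRNAs had 130 of 138 lower and 1 higher (median −0.65), and the 24 factors had 6 in each direction.

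On the TMM scale 16 members were lower in all 4 strains: MRP1, MRP2, MRP7, MRP51, MRPL7, MRPL13, MRPL20, MRPL33, MRPL49, MRPL50, MRPL51, MRPS9, MRPS18, RSM23, RSM27 and RSM28. The share of all transcripts lower in all 4 was not computed. MRPS18 (on chromosome XIV at bases 58155 to 58808) had 80.7 and 72.6 CPM in WT-N CHX and 116 and 111 CPM in WT-N noCHX, a log2 fold change of −0.57 ± 0.06 (adjusted p = 5.91e-06, edgeR). In FLAG-Upf1 it had 89.9 and 84.9 CPM with CHX and 119 and 120 CPM without, and in FLAG-Upf2 71.1 and 77.2 CPM with CHX and 91.3 and 92.6 CPM without. The groups did not overlap in any of these strains. MRP51 had 127 and 123 CPM in WT-N CHX and 171 and 170 CPM in WT-N noCHX (log2 fold change −0.45 ± 0.04, adjusted p = 1.97e-06, edgeR). With library totals its value was above 0 in the tagged strains, with FLAG-Upf2 at 0.14, FLAG-Upf3 at 0.03 and FLAG-Upf1 at 0.01. In WT-N, MRPL39 fell by 0.54, MRPL49 by 0.51, RSM27 by 0.50 and MRPS12 by 0.49 on the TMM scale. MRPL50 fell by 0.43 and MRP10 by 0.41 in FLAG-Upf1, MRP2 by 0.36 and MRPS9 by 0.33 in FLAG-Upf2, and MRPL13 by 0.33 and MRP2 by 0.31 in FLAG-Upf3, on the same scale.

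MRP20 was the only one of the 67 called higher with CHX in all 4 strains on the TMM scale. This protein at the tunnel exit (gene on chromosome IV at bases 1277646 to 1278437) had 41.0 and 37.6 CPM with CHX and 29.9 and 27.5 CPM without in WT-N, 47.5 and 39.3 CPM with CHX and 32.7 and 34.3 CPM without in FLAG-Upf1, and 32.4 and 41.7 CPM with CHX and 25.5 and 21.1 CPM without in FLAG-Upf2. In FLAG-Upf3 it had 48.5 and 48.2 CPM with CHX and 29.3 and 30.8 CPM without. Both libraries with CHX lay above both without in each strain. The log2 fold changes were 0.45, 0.37, 0.67 and 0.69 in WT-N, FLAG-Upf1, FLAG-Upf2 and FLAG-Upf3, with adjusted p-values of 0.00788, 0.0271, 0.000758 and 0.000608 (edgeR). Members called higher in 1 strain were MRPS5 in FLAG-Upf1 (0.28), RSM25 in FLAG-Upf2 (0.17) and MRPL24 in FLAG-Upf3 (0.16). Apart from MRP20, the members with positive values in all 4 strains were MRPL4, at 0.17, 0.32, 0.25 and 0.30 in WT-N, FLAG-Upf1, FLAG-Upf2 and FLAG-Upf3 with no call, and MRPL24, MRPS5, RSM22 and MRP13. The CHX effect in each of the 3 tagged strains was tested against that in WT-N, and edgeR called 0 members in each. At an unadjusted p under 0.05 the FLAG-Upf1 interaction had 15 higher and 1 lower, and that of FLAG-Upf3 17 higher and 0 lower, and DESeq2 called 2 in each. By adjusted p, 1.74% of all transcripts were called in the FLAG-Upf1 test, 0.0742% in that of FLAG-Upf2 and 0.0148% in that of FLAG-Upf3, in either direction. Their shares at an unadjusted p were not computed. The FLAG-Upf3 count of 25 was 11 without its CHX library 2 and 14 without its noCHX library 1.

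**Figure D3:**
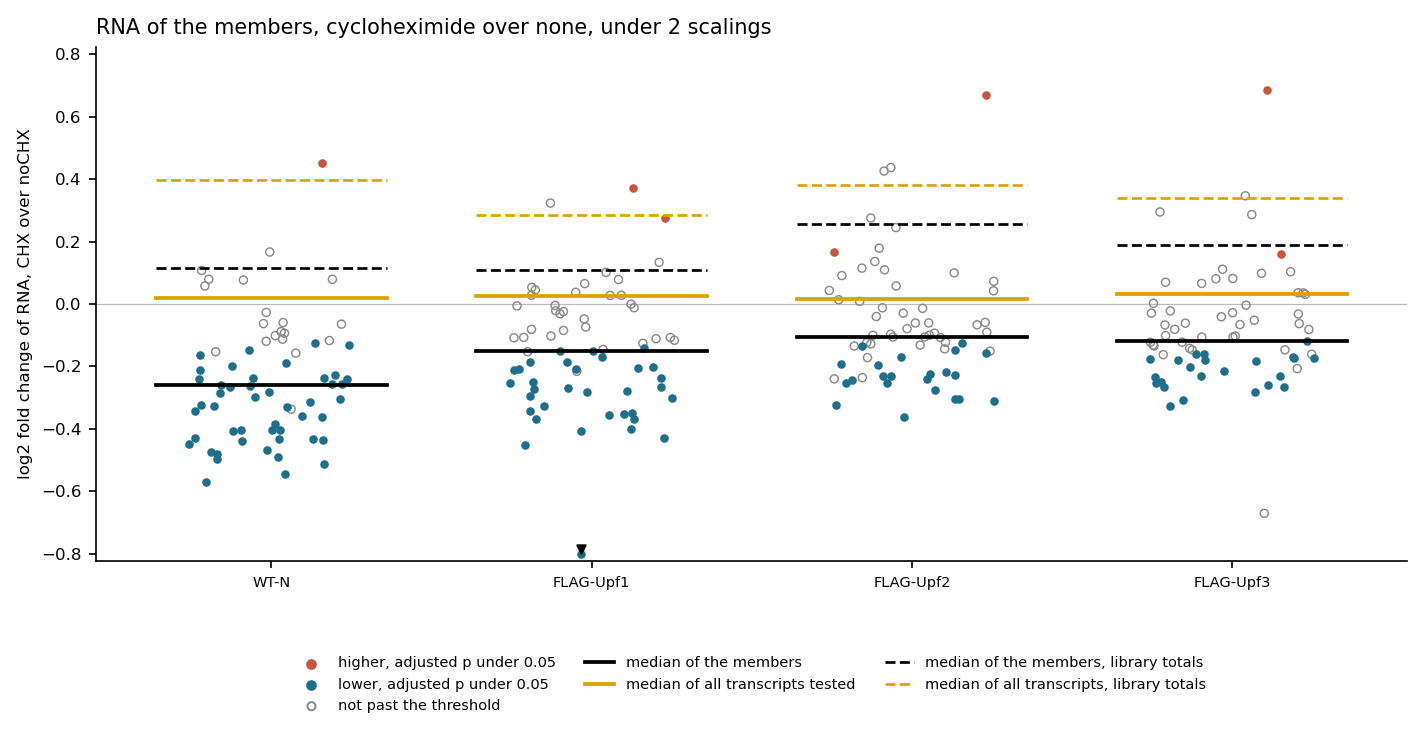
Log2 fold change of RNA, CHX over noCHX, of the members in the 4 N strains on the TMM scale. Points are members, solid bars medians on the TMM scale, and dashed bars medians with library totals as scaling, for the members (black) and all transcripts (yellow). The members' median lies below that of all transcripts under both scalings; the triangle marks MRPL44 in FLAG-Upf1 at −1.78, beyond the axis.

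MRPL44 (mL53), the only member with an entry for its unspliced RNA, needs its entries read together. Its mature entry (chromosome XIII, bases 720960 to 721403) had 7.24 and 16.2 CPM in FLAG-Upf1 CHX and 40.3 and 41.3 CPM in FLAG-Upf1 noCHX, a log2 fold change of −1.78 ± 0.48 (adjusted p = 0.0116, edgeR). Its unspliced entry had 23.5 and 15.5 CPM in FLAG-Upf1 CHX and 3.18 and 3.17 CPM in FLAG-Upf1 noCHX. The sum of both entries was 30.7 and 31.7 CPM with CHX and 43.5 and 44.4 CPM without. The unspliced entry held 6.29% to 76.4% of the sum over the 18 RNA libraries of N and 0% to 11.4% over the 12 of C. It also differed between replicates of one group, with 7.83% and 46.8% in WT-N CHX. The summed level was steadier, at 27.1 to 44.4 CPM in N and 28.4 to 38.8 CPM in C. The counts of the entries are estimates that divide shared reads, so the mature entry alone is uncertain for this gene.

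In footprints of total 80S ribosomes no member passed the threshold between strains or with CHX. In all 16 comparisons edgeR called 0 members, and DESeq2 called 0. Against WT-C, 5 members were higher and 4 lower at an unadjusted p under 0.05 in Upf1-FLAG, 4 and 0 in DE572AA-FLAG, and 1 and 7 in upf2Δ-labelled cells, where edgeR called 3.4%, 9.28% and 7.92% of 5086 transcripts in either direction. The median log2 fold changes of the members were −0.03, 0.04 and −0.19. Against Upf1-FLAG, 0.786% of transcripts were called in DE572AA-FLAG and 1.45% in upf2Δ-labelled cells. The members' medians were 0.06 and −0.17, against 0.01 and −0.0019 for all transcripts. In upf2Δ-labelled cells 57 of the 67 were negative, against 50.4% of all transcripts, and 7 were lower and 0 higher at an unadjusted p under 0.05. Against WT-N, edgeR called 0.254% of 4339 transcripts in FLAG-Upf2 noCHX and 0.23% in FLAG-Upf2 CHX, 0.0461% in each arm of FLAG-Upf1 and 0.023% in each arm of FLAG-Upf3. For FLAG-Upf1+Upf2+Upf3 CHX it was 0.968%. With CHX against noCHX it called 0.0922% in FLAG-Upf1 and in FLAG-Upf3, 0% in FLAG-Upf2 and 0.023% in WT-N. In those 11 N comparisons at most 2 members were higher and 5 lower at an unadjusted p under 0.05. The median standard error of a member was 0.29 for Upf1-FLAG against WT-C, about as large as the RNA differences above, so differences of that size were not detectable at this depth. The members' share of total 80S counts was 0.250 ± 0.00800% in Upf1-FLAG, 0.266 ± 0.00645% in DE572AA-FLAG, 0.224 ± 0.0124% in the upf2Δ-labelled strain and 0.228 ± 0.0110% in the 3 WT-C libraries (SD).

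The change in footprints relative to RNA (translational efficiency) was tested as an interaction, and 1 member was called in each strain. MRP10, a small subunit protein, was higher in Upf1-FLAG over WT-C, with a log2 value of 1.49 ± 0.33 (adjusted p = 0.0318, edgeR). It had 26.5, 23.6 and 24.5 footprint CPM in Upf1-FLAG and 6.82, 9.51 and 12.3 in WT-C, the last from 1, 5 and 5 counts. RSM26 was higher in DE572AA-FLAG (1.09 ± 0.28, adjusted p = 0.0454, edgeR), and MRPL20 (mL58) in the upf2Δ-labelled strain (1.10 ± 0.23, adjusted p = 0.0118, edgeR), where 0.483%, 1.45% and 1.89% of transcripts were higher and 0.211%, 0.498% and 0.513% lower. The calls of MRP10 and RSM26 rest on single libraries: leaving out one library at a time gave 0 to 1 members in Upf1-FLAG and 0 to 2 in DE572AA-FLAG. With the lysate as a replicate block, edgeR called 0 members in each of the 3 strains. Over Upf1-FLAG, edgeR called 0 members in either of the other two C strains, with 5 and 1 higher and 0 lower at an unadjusted p under 0.05 and 0 by DESeq2. There, 0.106% and 0.166% of transcripts were called in either direction.

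The IP libraries hold footprints of the ribosomes recovered on anti-FLAG gel. The members were scarcer in the IP than among all ribosomes. Their share of counts was lower in the IP than in total 80S in 23 of 23 lysates, at 0.702 to 0.909 times in C and 0.389 to 0.689 times in N. In C it was 0.197 ± 0.0102% in the IP of Upf1-FLAG, 0.230 ± 0.00953% in that of DE572AA-FLAG and 0.176 ± 0.0250% in that of the upf2Δ-labelled strain (SD, n = 3 each). Cytosolic ribosomal protein mRNAs took 10.001% of IP counts and 20.2% of total 80S counts in Upf1-FLAG, so their share differed more.

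**Figure D4:**
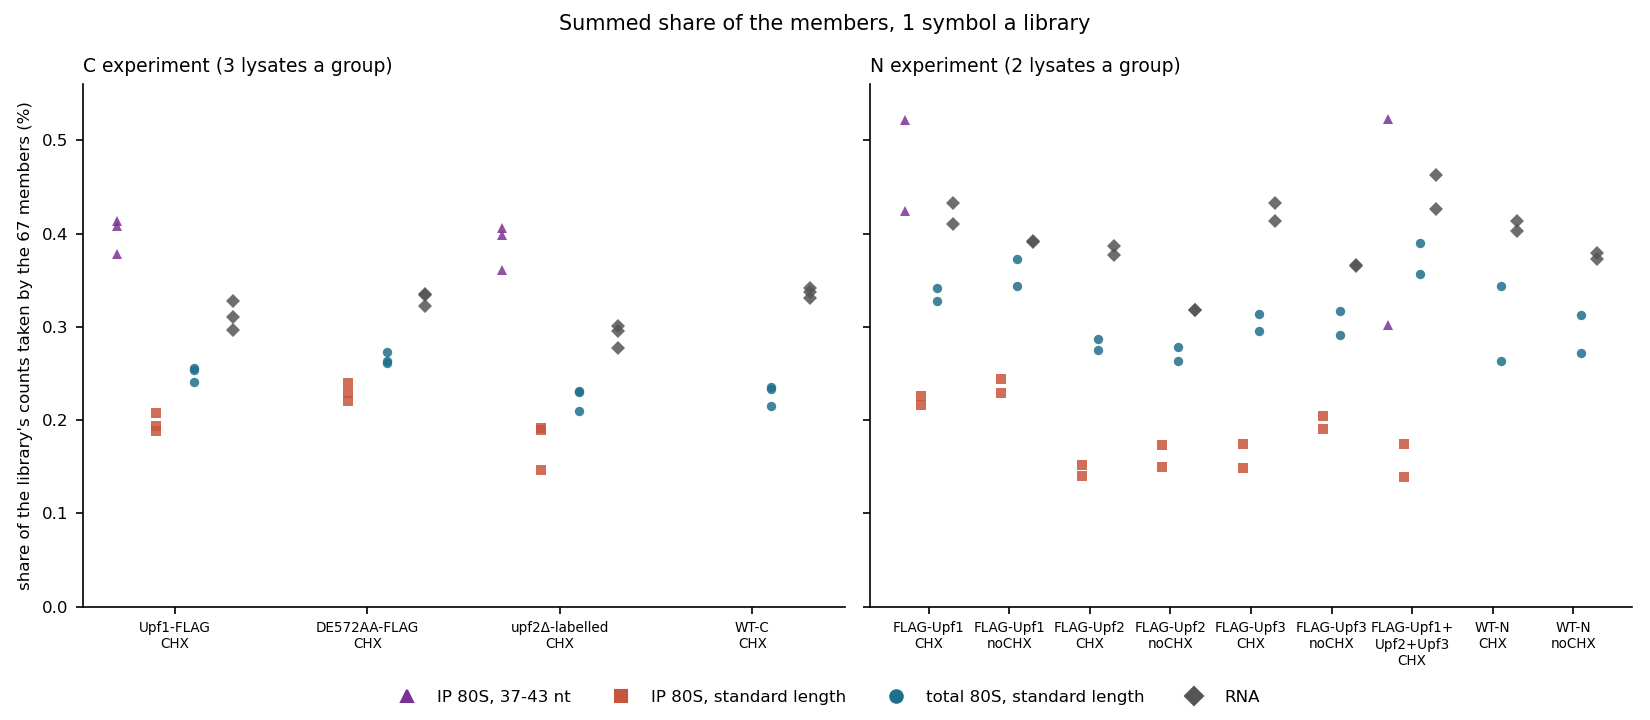
Share of each library's counts taken by the 67 members (%, axis from 0), 1 symbol a library, for C (left, 3 lysates a group) and N (right, 2 lysates a group). In each lysate the IP share of standard-length footprints lies below the total 80S share, and the IP share of 37-43 nt footprints lies above that of standard length where it was deposited.

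Member by member, in Upf1-FLAG 31 were lower in the IP than in total 80S and 4 higher, against 22.9% and 21.9% of 5050 transcripts. The median log2 fold change was −0.73. MRPS17 (on chromosome XIII at bases 636291 to 637004) had 6.91, 10.6 and 12.8 CPM in the IP and 36.6, 44.9 and 44.3 CPM in total 80S, a log2 fold change of −1.94 ± 0.28 (adjusted p = 3.88e-07, edgeR). MRP2 (uS14m) had 17.3, 4.07 and 10.2 CPM in the IP and 30.0, 40.8 and 40.5 CPM in total 80S, a log2 fold change of −2.18 ± 0.36 (adjusted p = 6.01e-06, edgeR). Neither overlapped. MRPL28, MRPL20 and MRPS9 (uS9m) fell by 2.10, 1.89 and 1.79 on the log2 scale. The 4 members higher in the IP were RSM22, RSM10 (uS10m), RSM26 and MRPL35 (mL38). RSM10 had 124, 83.9 and 81.6 CPM in the IP and 49.8, 45.6 and 49.7 CPM in total 80S, a log2 fold change of 0.91 ± 0.20 (adjusted p = 0.000338, edgeR). RSM22, the longest member, had 65.6, 33.4 and 33.2 CPM in the IP and 17.8, 17.9 and 21.7 CPM in total 80S, a log2 fold change of 1.04 (adjusted p = 0.00374, edgeR). Without IP library 2 of Upf1-FLAG, the deepest of the 3, 19 members were called in place of 35.

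DE572AA-FLAG had 23 members lower and 3 higher in the IP than in total 80S, against 20% and 17% of transcripts, and the upf2Δ-labelled strain 27 and 2, against 22.9% and 22%. Their median log2 fold changes were −0.49 and −0.68. MRPS17 fell by 1.54 in DE572AA-FLAG. In the upf2Δ-labelled strain it fell by 2.02 and had 12.5, 6.95 and 9.72 CPM in the IP and 45.0, 38.1 and 42.6 CPM in total 80S (adjusted p = 2.28e-07, edgeR). In the upf2Δ-labelled strain, MRPL13 (mL50) had 18.3, 15.6 and 21.1 CPM in the IP and 65.6, 58.9 and 63.6 CPM in total 80S, a log2 fold change of −1.76 ± 0.25 (adjusted p = 3.91e-07, edgeR). There, MRP49 fell by 1.85, MRPL28 by 1.73 and MRPL32 (bL32m) by 1.71, while RSM10 was higher by 0.69. In DE572AA-FLAG, RSM18 fell by 1.60, RSM19 (uS19m) by 1.53, MRPL33 by 1.51 and MRP2 by 1.49, while MRPL23 and MRPL38 (uL14m) were higher, by 0.68 and 0.59. RSM26 (on chromosome X at bases 618234 to 619034) was the only member called higher in all 3 strains. It had 51.8, 61.9 and 54.9 CPM in the IP and 36.3, 36.5 and 28.4 CPM in total 80S of Upf1-FLAG, and 55.7, 74.2 and 67.7 CPM in the IP and 45.7, 30.5 and 36.9 CPM in total 80S of DE572AA-FLAG. In the upf2Δ-labelled strain it had 73.3, 36.5 and 34.0 CPM in the IP and 28.2, 22.3 and 23.2 CPM in total 80S. Every IP library lay above every total 80S library of its strain, and the log2 fold changes were 0.76, 0.82 and 1.06 (adjusted p = 0.00768, 0.00346 and 0.000662, edgeR).

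Lower in the IP in all 3 strains were 17 members, of both subunits: MRP8, MRP20, MRP49, MRP51, MRPL13, MRPL20, MRPL22, MRPL28, MRPL36, MRPS8, MRPS9, MRPS12, MRPS17, MRPS28, RSM7, RSM19 and RSM28. The share of all transcripts lower in all 3 was not computed, so this count has no background. The ratio of IP to total 80S was tested between strains. Against Upf1-FLAG, edgeR called 0 members in either of the other two C strains, with 5 and 4 higher and 0 lower at an unadjusted p under 0.05 and 0 by DESeq2. There, 0.139% and 0% of transcripts were called in either direction.

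Coding length went with this ratio, for members and for other mRNAs. In Upf1-FLAG, members under 500 bases had a median log2 fold change of IP over total 80S of −0.89, against −1.08 for other mRNAs of that length. From 500 to 1000 bases the medians were −0.54 and −0.34, and from 1000 to 2000 bases −0.25 and 0.17. The upf2Δ-labelled strain had −0.89 and −0.96, −0.63 and −0.33, and −0.34 and 0.14, and DE572AA-FLAG had −0.76 and −0.72, −0.36 and −0.27, and −0.30 and 0.09. Above 500 bases the members' median lay below that of other mRNAs in all 3 strains, and under 500 bases it lay above in 2 of them. The share of members called lower was below that of other mRNAs in all 3 strains under 500 bases, and above it in the longer classes. Under 500 bases, 14 of 25 members were lower in Upf1-FLAG against 57.6% of other mRNAs, 10 of 25 against 46.5% in DE572AA-FLAG and 10 of 25 against 54.0% in upf2Δ-labelled cells. From 500 to 1000 bases the shares were 40.6% of members and 32.8% of other mRNAs in Upf1-FLAG, 31.2% and 30.2% in DE572AA-FLAG, and 37.5% and 34.4% in upf2Δ-labelled cells. From 1000 to 2000 bases 4, 3 and 5 of 10 members were lower, against 15.9%, 14.1% and 16.1% of other mRNAs. The lists beside them followed no single direction. In Upf1-FLAG, where 21.9% of all transcripts were higher and 22.9% lower, list counts went both ways. There, 9 of 23 tested factors and synthetases of mitochondria were higher in the IP and 1 lower, TUF1, with a median of 0.37. Of the 35 respiratory mRNAs 23 were lower and 4 higher (median −0.88), and of 12 other-named mitochondrial ribosomal proteins 6 were lower and 1, MHR1, higher.

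In the N experiment the IP against total 80S comparisons tested 65 members and gave few calls in the fit of all groups. FLAG-Upf1 had 0 members called by edgeR without CHX and 0 with it, against 3.28% and 2.23% of 4578 transcripts called in either direction. At an unadjusted p under 0.05, 6 were lower and 1 higher without CHX and 5 and 0 with it, and DESeq2 called 1 lower and 0. The members' medians in FLAG-Upf1 were −0.91 and −0.62, against −0.14 and 0.04 for all transcripts. There, 52 and 46 of the 65 members were negative, against 54.7% and 48.0% of all transcripts. FLAG-Upf2 had 1 lower in each arm, RSM27 without CHX and MRPL27 (mL41) with it, against 7.23% and 7.75% of transcripts lower and 1.55% and 1.92% higher. The members' medians were −1.40 and −1.79 there, against 0.02 and −0.0030 for all transcripts. Fold changes were negative for 54 and 55 of the 65 members, against 49.0% and 50.1% of all transcripts. A fit of the compared groups alone called 28 lower and 1 higher in each arm, and DESeq2 called 9 and 12, all lower. FLAG-Upf3 had 2 lower without CHX, MRPL40 and MRPS12, and 6 lower with it, MRP21, MRPL19, MRPS12, RSM18, RSM19 and RSM24, against 7.93% and 9.24% lower and 1.27% and 2.56% higher. The compared groups alone gave 7 and 18 lower, and DESeq2 5 and 12. FLAG-Upf1+Upf2+Upf3 CHX had 6 lower and 1 higher, against 7.4% and 6.4%, with 0 called in the groups alone and 10 lower and 1 higher by DESeq2. These calls rest on few counts. RSM19 had 1 and 1 counts in the IP and 25 and 23 in total 80S of FLAG-Upf3 CHX. RSM10, called higher in FLAG-Upf1+Upf2+Upf3, had 0 and 9 counts in the IP and 0 and 0 in total 80S. Leaving out one library at a time gave 0 to 1 calls in FLAG-Upf2 noCHX, 0 in FLAG-Upf2 CHX, 0 to 1 in FLAG-Upf3 noCHX, 0 to 2 in FLAG-Upf3 CHX and 2 to 8 in FLAG-Upf1+Upf2+Upf3 CHX. With the lysate as a replicate block, 1 member was called in FLAG-Upf3 noCHX, 0 in FLAG-Upf2 CHX and 4 in FLAG-Upf1+Upf2+Upf3 CHX.

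Ribosome footprints of 37-43 nt were deposited beside those of 27-32 nt for some IP libraries. Both classes were compared within the IP of Upf1-FLAG and of the upf2Δ-labelled strain, a comparison added after seeing the data. The members' share of counts was higher among the long footprints in 10 of 10 IP libraries, by 1.96 to 3.001 times. In Upf1-FLAG it was 0.400 ± 0.0190% of long and 0.197 ± 0.0102% of standard footprints, and in the upf2Δ-labelled strain 0.389 ± 0.0240% and 0.176 ± 0.0250% (SD, n = 3 each). Of 66 members tested, 23 were higher and 2 lower in Upf1-FLAG, against 27% and 27.3% of 4686 transcripts, and 30 higher and 3 lower in the upf2Δ-labelled strain, against 27.3% and 28.3%. The median log2 fold changes were 0.76 and 0.94. Long footprints were also deposited for total 80S in 2 groups of N, where the members' share of long and standard footprints was 0.423 ± 0.118% and 0.335 ± 0.00999% in FLAG-Upf1 CHX and 0.212 ± 0.107% and 0.374 ± 0.0238% in FLAG-Upf1+Upf2+Upf3 CHX (SD, n = 2 each). In FLAG-Upf1 CHX the long share was higher in library 1 alone (0.507% against 0.328% of standard footprints), and library 2 had 0.340% and 0.342%. The long shares of FLAG-Upf1+Upf2+Upf3 CHX rest on 18 and 30 member counts, with 64 and 60 of the 67 members at 0, so no direction was read from these groups.

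MRPL40 (uL24m, on chromosome XVI at bases 223143 to 224036) led both. It had 125, 118 and 138 CPM of long and 12.6, 15.7 and 12.3 CPM of standard footprints in Upf1-FLAG, a log2 fold change of 3.16 ± 0.35 (adjusted p = 1.39e-09, edgeR). In the upf2Δ-labelled strain it had 81.9, 76.1 and 140 CPM of long and 18.7, 8.49 and 13.8 CPM of standard footprints, a log2 fold change of 2.73 (adjusted p = 3.81e-08, edgeR). RSM27 had 92.1, 91.3 and 121 CPM of long and 16.4, 19.1 and 15.8 CPM of standard footprints in the upf2Δ-labelled strain (2.55 ± 0.35, adjusted p = 1.09e-07, edgeR). The classes overlapped for neither. In Upf1-FLAG, MRP2 followed at a log2 fold change of 2.78, MRPL33 at 2.37 and RSM18 at 2.31, and MRPL50, MRPL33 and MRP21 (bS21m) in the upf2Δ-labelled strain at 2.31, 2.31 and 2.07. Higher in both strains were 19 members, among them MRPL33, MRPL50, RSM18, MRP10, MRP20 and MRP21. The share of all transcripts higher in both was not computed. The members lower among long footprints were RSM10 and MRPL35 in Upf1-FLAG, and MRPL11 (uL10m), MRP13 (mS44) and MRP4 in the upf2Δ-labelled strain. MRPL35 had 36.9, 50.3 and 50.7 CPM of long and 88.4, 111 and 98.5 CPM of standard footprints in Upf1-FLAG, a log2 fold change of −1.09 ± 0.29 (adjusted p = 0.00189, edgeR). RSM10 fell by 1.14 (adjusted p = 0.00302, edgeR). Both had been higher in the IP than in total 80S, and the 2 comparisons share the IP libraries of standard footprints, so they are not separate evidence.

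Here too coding length went with the ratio, in members and other mRNAs. In Upf1-FLAG the median log2 fold change of long over standard footprints was 1.04 for members and 1.04 for other mRNAs under 500 bases, 0.53 and 0.31 from 500 to 1000 bases, and 0.43 and −0.30 from 1000 to 2000 bases. The medians of the upf2Δ-labelled strain were 1.24 and 0.84, 0.66 and 0.32, and 0.68 and −0.31. The members' medians lay above those of other mRNAs in all of these classes except the shortest in Upf1-FLAG. The share of members called higher did not follow in every class: in Upf1-FLAG 10 of 24 members under 500 bases were higher against 48.6% of other mRNAs, 9 of 32 against 31.6% from 500 to 1000 bases, and 4 of 10 against 21.2% from 1000 to 2000 bases. In the upf2Δ-labelled strain it was 11 of 24 against 46.4%, 14 of 32 against 32.99% and 5 of 10 against 20.9%. Cytosolic ribosomal protein mRNAs were also often higher among long footprints, with 74 of 138 higher and 16 lower in Upf1-FLAG, and the 23 factors and synthetases tested were more often lower, with 8 lower and 1 higher. Of all transcripts, 27% were higher and 27.3% lower in Upf1-FLAG.

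**Figure D5:**
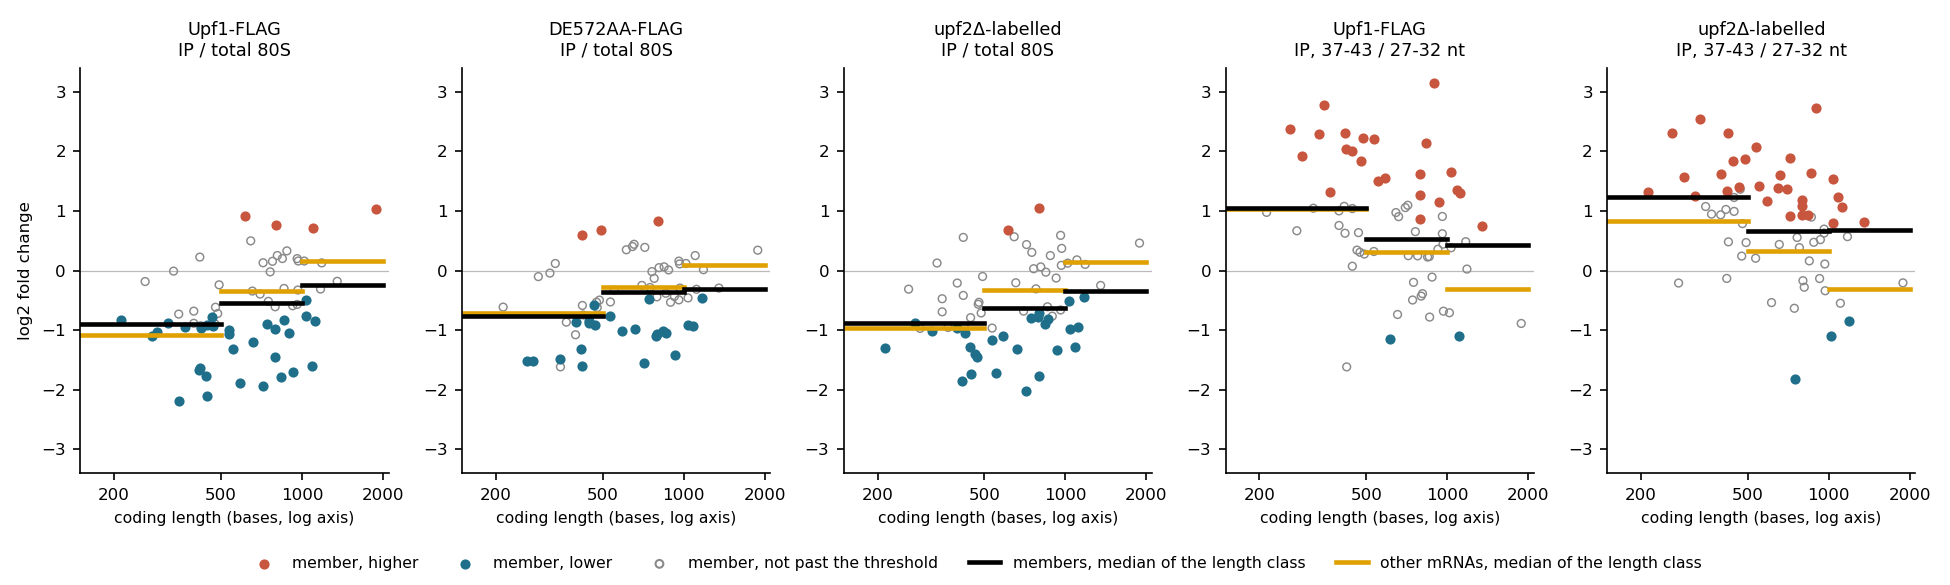
Log2 fold change of each member against its coding length (bases, log axis), for IP over total 80S in the 3 C strains and for 37-43 nt over 27-32 nt footprints of the IP in 2 of them. Points are members, filled where the edgeR adjusted p is under 0.05; black and yellow bars are the medians of members and of other mRNAs in classes under 500, 500 to 1000 and 1000 to 2000 bases. Short mRNAs lie lower in IP over total 80S and higher in long over standard footprints.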

How the data were processed

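The 6 deposited tables hold, for RNA, total 80S and IP libraries, RSEM expected counts (estimated by the authors, per the file headers) and FPKM as deposited by the authors, for 6952 transcripts. Per the submitters' processing notes, cutadapt, Bowtie and RSEM were used with builds R64 and sacCer3, versions not given. RSEM divides reads shared by entries, such as spliced and unspliced RNA. Per the labels' protocols, footprints came from RNase I digestion and a 1 M sucrose cushion. Main footprint classes were 27-32 nt with CHX and 20-32 nt without it.

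Standard names came from RefSeq's R64 gene table, which matched 5264 of 6656 loci. No genome was used here, so no sequence is printed. VAR1 is not reported because no row matched it. RSM22 has no ribosomal family in the annotation and was placed in neither subunit, although the subunit rule by name would have put it in the small one. The members and lists were chosen with earlier results of these data known.

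The expected counts, once rounded to integers, were tested with edgeR 4.0.16 (R 4.3.3): quasi-likelihood, TMM scaling, a minimum count of 10 in filterByExpr, and Benjamini-Hochberg adjustment over all transcripts of a comparison. There was 1 model per experiment and kind of library, without a block. The scripts recovered known changes in simulated counts for the first direct comparison of groups in each model that had one. Tests of interactions, including footprints relative to RNA, were not simulated. CPM of single members and of PUF3 in the text are edgeR's counts per unit of library size after TMM scaling. Those of NMD2, STE3 and MFA1 are scaled to library totals without TMM. Fold changes are the named first group over the other. Shares of counts and FPKM levels were not tested, since 3 libraries against 3 cannot go below p = 0.1 in an exact test. Tables were joined with Python 3.11.15, pandas 2.3.3 and numpy 2.4.6.

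Named are, per comparison, the 5 members called with the largest changes in each direction, the 5 highest and lowest by FPKM in the wild types, 8 fixed members (MRP1, MRP8, MRP10, MRP51, MRPL19, MRPL36, MRPL44 and RSM22) and PUF3. Other lists name at most 2 genes a direction. Other members named, such as MRP20 in the CHX comparison, were chosen after their values were seen. Statements that libraries of named members did not overlap describe the values used to pick them. The share of all transcripts without overlap was not computed. Alternatives were DESeq2 1.42.0, DESeq2-style size factors in edgeR, library totals, no filter, the compared groups alone, a replicate block, single libraries left out, 27-32 nt alone and the members without MRP8. Library totals, the crossed block, the tests of the CHX effect between strains and the long against standard comparison were added after seeing the data. Library numbers in the labels join the RNA, total 80S and IP of one lysate, and RNA with and without CHX of one number. Deviations of same-numbered libraries correlated at −0.02 to 0.06 between IP and total 80S in C, −0.04 to 0.03 in N and −0.12 to 0.48 between RNA with and without CHX.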

Additional observations from a re-analysis of the deposited data

How the results depend on the processing

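Counts are of members called. Of the 389 counts recomputed under a changed setting, 326 stayed within 1.5 times the main count. With library totals the direction turned for DE572AA-FLAG against Upf1-FLAG RNA (7), FLAG-Upf1 noCHX RNA (4) and the CHX effect on RNA in WT-N (22), FLAG-Upf1 (26), FLAG-Upf2 (48) and FLAG-Upf3 (36). In each of these that scaling also raised the median of all transcripts, and the members' median lay below it under both scalings. Library totals also gave 7 for DE572AA-FLAG and 2 for upf2Δ-labelled against Upf1-FLAG RNA, 1 for FLAG-Upf1 CHX, 2 for FLAG-Upf1+Upf2+Upf3, 1 for total 80S of the upf2Δ-labelled strain, 0 for the footprint to RNA ratio of DE572AA-FLAG, 2 and 2 for the IP of FLAG-Upf2 noCHX and CHX, and 38 for long footprints in Upf1-FLAG. Fitting only the compared groups gave, for RNA, 0 for DE572AA-FLAG and 9 for upf2Δ-labelled against Upf1-FLAG, 4 for FLAG-Upf1, 0 for FLAG-Upf2 and 0 for FLAG-Upf3 noCHX, 0 for FLAG-Upf1 CHX, and for the CHX effect 14 (FLAG-Upf2), 22 (FLAG-Upf1) and 45 (FLAG-Upf3). It gave 1 and 1 for total 80S of upf2Δ-labelled against Upf1-FLAG and of CHX in FLAG-Upf2, 0 and 0 for the footprint to RNA ratios of Upf1-FLAG and DE572AA-FLAG, and 29, 7, 29, 18 and 0 for the IP of FLAG-Upf2 noCHX, FLAG-Upf3 noCHX, FLAG-Upf2 CHX, FLAG-Upf3 CHX and FLAG-Upf1+Upf2+Upf3. DESeq2 gave 4 for DE572AA-FLAG against Upf1-FLAG RNA, 2 for FLAG-Upf3 noCHX, 2 and 5 for FLAG-Upf2 and FLAG-Upf3 CHX, 0 and 0 for the first 2 footprint to RNA ratios, 1, 9, 5, 12, 12 and 11 for the IP of FLAG-Upf1 noCHX, FLAG-Upf2 noCHX, FLAG-Upf3 noCHX, FLAG-Upf2 CHX, FLAG-Upf3 CHX and FLAG-Upf1+Upf2+Upf3, and 2, 1 and 2 for the CHX effect of FLAG-Upf1, of FLAG-Upf2 and of FLAG-Upf3 against WT-N. DESeq2's size factors in edgeR gave 3 for FLAG-Upf1 CHX RNA, 0 and 0 for the first 2 footprint to RNA ratios, and 3 and 3 for the IP of FLAG-Upf2. Without a filter the IP of FLAG-Upf2 gave 2 and 2, and with 27-32 nt footprints alone that of FLAG-Upf3 noCHX gave 0. The replicate block gave 1 for FLAG-Upf1+Upf2+Upf3 RNA, 0 for all 3 footprint to RNA ratios, and 1, 0 and 4 for the IP of FLAG-Upf3 noCHX, FLAG-Upf2 CHX and FLAG-Upf1+Upf2+Upf3. It moved no other count by over 1.5 times, and crossed numbers in FLAG-Upf1 gave 34 for CHX. The cause of these differences was not tested.

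Single members turned sign for CHX over noCHX with library totals. In WT-N, the log2 fold changes were 0.23 for MRP8, 0.0527 for MRP10 and 0.00985 for MRPL36, and in FLAG-Upf1 0.00778 for MRP51. In FLAG-Upf2 they were 0.0593 for MRP1, 0.0023 for MRP2, 0.058 for MRP7, 0.0561 for MRPS18, 0.0387 for MRPS9, 0.14 for MRP51 and 0.14 for MRPL36. In FLAG-Upf3 they were 0.0268 for MRP51, 0.0407 for MRP7, 0.0399 for MRPL49, 0.0574 for MRP1 and 0.12 for MRPL36. RSM10 in the IP of FLAG-Upf1+Upf2+Upf3 gave fitted log2 values of 0 to 8.12 when 1 library was left out, resting on at most 9 counts.

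Leaving out 1 library at a time gave, for RNA against WT-C, 7 to 14 in Upf1-FLAG, 17 to 26 in DE572AA-FLAG and 34 to 39 in the upf2Δ-labelled strain, and against Upf1-FLAG 0 to 7 in DE572AA-FLAG and 11 to 19 in the upf2Δ-labelled strain. Against WT-N it gave 0 to 4 in FLAG-Upf1, 14 to 27 in FLAG-Upf2 and 0 to 1 in FLAG-Upf3 noCHX, and 0 to 5, 0, 0 to 2 and 0 to 3 in FLAG-Upf1, FLAG-Upf2, FLAG-Upf3 and FLAG-Upf1+Upf2+Upf3 CHX. For CHX it gave 40 to 46 in WT-N, 24 to 39 in FLAG-Upf1, 16 to 25 in FLAG-Upf2 and 11 to 22 in FLAG-Upf3, and 0 to 3 for the effect in FLAG-Upf1 against WT-N. Total 80S gave at most 2. Footprint to RNA ratios gave 0 to 1, 0 to 2 and 1 to 2. IP against total 80S gave 19 to 31, 19 to 24 and 21 to 29 in the C strains, and in N at most 1 in FLAG-Upf2 and in FLAG-Upf3 noCHX, 0 to 2 in FLAG-Upf3 CHX and 2 to 8 in FLAG-Upf1+Upf2+Upf3. Long footprints gave 21 to 29 in Upf1-FLAG and 23 to 31 in the upf2Δ-labelled strain. Where an arm kept 1 library, it was assumed to vary like the other groups.

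Over mRNA rows alone, the members' share of RNA was 0.331%, 0.350%, 0.311% and 0.351% in Upf1-FLAG, DE572AA-FLAG, the upf2Δ-labelled strain and WT-C. Over summed FPKM it was 0.494%, 0.553%, 0.471% and 0.541% for RNA, 0.354%, 0.373%, 0.319% and 0.317% for total 80S, 0.312%, 0.360% and 0.282% for the IP, and 0.592% and 0.599% for long footprints in Upf1-FLAG and the upf2Δ-labelled strain. In CPM, which is not per length, the highest member was 9.16 times the lowest.

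Depth limits footprint tests of single members. The median standard error was 0.29 for total 80S of Upf1-FLAG against WT-C. The planned search for Puf3 sites in the bases after the stop codon was not run, since no genome of the build was used here.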

Other observations

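Lists of genes that act on mitochondrial translation from outside the ribosome held calls in both directions with cycloheximide. The lists are small, and none was tested against the shares of all transcripts given beside them. On the TMM scale, 5 of 14 translational activators, which help particular mitochondrial mRNAs to be translated, were higher with CHX in WT-N and 1 was lower, and in FLAG-Upf1 7 were higher and 1 lower. Of all transcripts, 30.8% were higher and 29.5% lower in WT-N, and 25.8% and 22.6% in FLAG-Upf1. Of the 24 factors and synthetases, 8 were higher and 5 lower in FLAG-Upf2 and 4 in each direction in FLAG-Upf3. The shares of all transcripts were 26.9% higher and 27.8% lower in FLAG-Upf2, and 27.3% and 27.8% in FLAG-Upf3. Of 12 mitochondrial ribosomal proteins with other names, 8 were lower and 0 higher with CHX in WT-N, and among the tagged strains FLAG-Upf2 had 5 lower, FLAG-Upf3 had 6 and FLAG-Upf1 had 7, with 0 higher.

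In Upf1-FLAG, 7 of 12 other-named mitochondrial ribosomal proteins (11 tested) were higher and 1 lower among 37-43 nt than 27-32 nt footprints of the IP, with a median log2 fold change of 1.24. Of 35 respiratory mRNAs 19 were higher and 6 lower there, with a median of 0.70. Of 4686 transcripts, 27% were higher and 27.3% lower in that comparison.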
